A study of Mus musculus with 40 samples.

Results

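Fat in adipocytes is kept in lipid droplets, and the 10 genes described here encode proteins that coat, enlarge or build them: the perilipins Plin1, Plin2, Plin3, Plin4 and Plin5, the CIDE proteins Cidea, Cideb and Cidec, and Fitm2 and Bscl2, whose products act where droplets form. They were chosen by name, and H3K27ac, an acetylation of histone H3 found at active promoters and enhancers, was read from 10 kb upstream of the GENCODE start of each gene to its end in mm10. They are 10 of 21938 protein-coding genes, and all 10 were among the 15592 genes with a peak in at least 3 of 24 libraries that entered the tests. The libraries were made by chromatin immunoprecipitation and sequencing (ChIP-seq) from primary cells of inguinal white adipose tissue of C57BL/6 mice, either wild type (WT) or without HMGN1 and HMGN2, which bind nucleosomes (Hmgn1-/- and Hmgn2-/-, double knockout, DKO). In each genotype 3 libraries were made at each of 4 stages, namely preadipocytes at day 0, differentiating adipocytes at days 3 and 6, and cells called brown-like adipocytes at day 9. The cells of both genotypes were grown on collagen and driven into adipocytes with insulin, dexamethasone, IBMX, T3 and rosiglitazone, an agonist of PPARG, and were then kept in insulin and T3. The labels name no tissue-specific driver for the deletions, and they do not say whether the 3 libraries of a group came from separate animals or cultures, so p-values measure only the spread between these libraries.

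A lipid droplet is a core of triglyceride and sterol ester inside a single layer of phospholipid, and the proteins on that layer decide how easily lipases reach the core. PLIN1, the perilipin of mature adipocytes, holds the lipase co-activator ABHD5 until it is phosphorylated. PLIN2 and PLIN3 coat droplets in most cells, PLIN4 is abundant in white adipocytes, and PLIN5 is known from oxidative tissues, where it brings droplets and mitochondria together. CIDEC and CIDEA help droplets fuse or exchange lipid, CIDEA being used as a marker of brown and beige fat, and CIDEB is mainly a liver protein. FITM2 and seipin, the product of Bscl2, act in the endoplasmic reticulum where droplets bud, and loss of seipin causes lipodystrophy.

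For each gene and library, 4 quantities were read from the peak lists: the number of kb under peaks (covered length), the number of peaks, the fold enrichment over background of the strongest peak (best fold), and the percentile of the strongest peak by q value among all peaks of its library. The libraries held 47448 to 115923 peaks over 20.7 to 96.4 Mb of genome. At day 6 the WT lists covered 55.5 to 60.4 Mb and the DKO lists 20.7 to 36.3 Mb, and at day 9 the order was turned, with 48.2 to 59.6 Mb in WT and 61.2 to 68.8 Mb in DKO. DKO day 0 replicate 2 stood apart with the widest peaks, a median of 1076 bp against 313 to 376 bp in the others. WT day 3 replicate 3 had the lowest background, 4.5 reads per kb, against a median of 10.45 over the 24 libraries. It also held the highest fold of all lists, 159. Reads are not in the lists and were worked back from the fold and p value of each peak. A peak lay at the start of Hmgn2 in 12 of 12 WT and 0 of 12 DKO libraries, whereas Hmgn1 had one in all 24. Of the adipocyte markers, 6 of 7 were tested and 6 gained covered length from day 0 to day 9, with Lep having a peak in 1 library only. Of the preadipocyte and stromal markers, Cd34 gained and Thy1 lost covered length among 7. Of the macrophage and leukocyte markers 4 of 5 lost it, their summed length going from between 24.04 and 26.8 kb (WT) and between 29.8 and 61.2 kb (DKO) in preadipocytes to between 8.21 and 10.1 kb and between 11.2 and 13.0 kb in brown-like adipocytes. The endothelial markers lost it in 2 of 4 genes, and of all genes tested 16.8% gained and 15.3% lost covered length over these days. The muscle genes Myod1, Myf5 and Des had no peak in any library. The part of these other cells in the results below was not tested, and in a bulk culture fewer cells with a mark and less of the mark per cell cannot be told apart.

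Some stretches of sequence carry the features that the peaks lie on, and they were chosen after the values were seen. They are given 5′ to 3′ on the strand of the gene from GRCm38.p6, and capitals mark matches to 3 motifs searched on both strands. These are the AP-1 site TGACTCA, the C/EBP site TTGCNNAA, and the DR1 element bound by PPARG, taken as 2 copies of AGGTCA separated by 1 base with up to 2 mismatches. Matches describe letters and not binding, and no match in a window says nothing about the factor. Of the windows searched at the 10 genes, 2 of 10 before the starts and 5 of 18 around strong summits held any match, and the other windows held none.
Plin1, the 250 bases before the start, chr7:79732904-79733153, with a C/EBP match at base -60 from the start: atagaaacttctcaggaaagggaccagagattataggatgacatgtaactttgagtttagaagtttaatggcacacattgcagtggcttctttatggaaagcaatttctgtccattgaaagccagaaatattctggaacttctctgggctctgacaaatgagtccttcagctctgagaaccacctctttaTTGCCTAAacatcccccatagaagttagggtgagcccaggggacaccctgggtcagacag
Plin1, the 300 bases around the strongest summit inside the gene, chr7:79731293-79731592, with an AP-1 match at base 1561: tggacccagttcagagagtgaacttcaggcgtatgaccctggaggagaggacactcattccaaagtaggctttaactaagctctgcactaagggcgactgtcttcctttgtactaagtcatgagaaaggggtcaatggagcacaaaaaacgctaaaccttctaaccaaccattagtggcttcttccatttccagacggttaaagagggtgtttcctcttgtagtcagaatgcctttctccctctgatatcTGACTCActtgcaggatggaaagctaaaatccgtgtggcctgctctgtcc
Plin2, the 250 bases before the start, chr4:86670061-86670310, with a DR1 match at base -224: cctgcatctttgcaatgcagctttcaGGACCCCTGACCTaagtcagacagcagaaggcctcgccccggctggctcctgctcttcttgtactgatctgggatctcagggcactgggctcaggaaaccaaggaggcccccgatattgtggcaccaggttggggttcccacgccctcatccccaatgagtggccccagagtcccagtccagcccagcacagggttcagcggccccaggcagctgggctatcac
Plin4, the 300 bases around the strongest summit of the 10 genes, chr17:56110090-56110389, upstream of the start and with no match: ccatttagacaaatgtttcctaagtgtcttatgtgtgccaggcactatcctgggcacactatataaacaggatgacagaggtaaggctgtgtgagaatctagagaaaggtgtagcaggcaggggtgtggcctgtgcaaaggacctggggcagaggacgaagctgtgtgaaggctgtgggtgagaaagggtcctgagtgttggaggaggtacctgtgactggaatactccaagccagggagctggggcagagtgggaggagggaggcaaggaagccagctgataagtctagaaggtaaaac
Cidec, the 250 bases before the start, chr6:113435761-113436010, with no match: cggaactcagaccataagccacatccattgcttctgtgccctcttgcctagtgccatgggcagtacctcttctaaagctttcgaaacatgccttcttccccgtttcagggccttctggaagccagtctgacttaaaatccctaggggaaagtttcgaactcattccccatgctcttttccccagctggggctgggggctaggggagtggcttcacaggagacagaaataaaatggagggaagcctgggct
Among the 250 bases before the start of all 21938 coding genes, 4% held the AP-1 site, 9.23% the C/EBP site and 2.82% a DR1 match. Around the strongest summits of all 169134 merged regions, made by joining overlapping peaks of the 24 lists, the shares were 5.82%, 11.6% and 4.9%.

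Plin1 gained the most covered length of the 10 genes. It had 0.814, 0.760 and 1.11 kb under peaks in the WT preadipocyte libraries and 0.533, 1.56 and 0.710 kb in the DKO ones, and these peaks lay at the far end of the gene and about 10 kb upstream. The upstream peaks belong to a region that holds the starts of Pex11a and Wdr93 and lay under peaks in 24 of 24 libraries. At day 3 the covered length was 2.08, 2.04 and 1.08 kb in WT and 0.450, 1.34 and 0.848 kb in DKO. By day 6 most of the window was covered, with 16.5, 14.6 and 16.2 kb in WT and 16.3, 15.8 and 13.2 kb in DKO, and the genotypes overlapped. Brown-like adipocytes had 13.4, 15.3 and 15.1 kb in WT and 18.8, 18.3 and 17.7 kb in DKO, so that every DKO library was above every WT library. Averaged over genotypes, day 9 exceeded day 0 by 15.5 kb (exact permutation test within genotype, two-sided, Benjamini-Hochberg adjusted p = 0.0198), and the day 9 mean was 16.3 times the day 0 mean in WT and 19.5 times in DKO.

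The annotated start of Plin1, at the first base after the first printed stretch, fell between a pair of merged regions. The one inside the gene, chr7:79727006-79732834, holds the AP-1 match printed above and had no peak in the 6 libraries of day 0, peaks in 3 WT and 2 DKO libraries at day 3, and peaks in all 12 libraries of days 6 and 9. The one upstream, chr7:79732919-79733635, with the C/EBP match, was called in all 12 libraries of days 6 and 9 and in none before. Between the genotypes these regions differed little at day 9, the first covering on average 5.39 kb in WT and 5.72 kb in DKO.

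Plin4 carried the peak with the highest fold of the set. Its window held 0.560, 0.668 and 1.33 kb under peaks in WT and 1.48, 2.002 and 0.727 kb in DKO at day 0, all close to its start. At day 6 it held 7.59, 6.19 and 7.26 kb in WT and 8.99, 9.40 and 5.67 kb in DKO, overlapping sets. By day 9 it held 6.62, 6.88 and 7.46 kb in WT and 12.1, 12.4 and 13.1 kb in DKO, a ratio of means of 1.80 with no overlap. The window contains the whole of the neighbouring Plin5, so a part of this length cannot be assigned to Plin4. Over the Plin4 gene alone, day 9 gave 3.74, 3.67 and 4.41 kb in WT and 5.73, 6.18 and 6.49 kb in DKO. The rise of the whole window from day 0 to day 9 was 8.65 kb (exact permutation test, adjusted p = 0.0198). The start region chr17:56106442-56113259 lay under peaks in 24 of 24 libraries and grew in width, and at day 9 it covered 5.72 kb in WT and 6.63 kb in DKO. Best fold at day 9 was 17.5, 12.2 and 12.4 in WT and 37.7, 36.1 and 28.9 in DKO, against 4.36 to 6.63 over both genotypes at day 0. The summits of the 2 highest of these peaks lay 0.436 and 0.437 kb upstream of the start, in the Plin4 stretch printed above. They rested on 119 and 102 reads, as worked back from fold and p value. The third DKO library had its strongest summit 0.432 kb inside the gene with 85 reads.

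Plin5 lies directly upstream of Plin4 on the same strand, and the 2 windows share bases. The counts over the set below enter these bases for both genes. No peak lay in the Plin5 window in any of the 6 preadipocyte libraries. At day 3 it held 0.346, 0.419 and 0 kb in WT and 0.273, 0.796 and 0.980 kb in DKO. At day 6 it held 4.63, 4.13 and 4.02 kb in WT and 5.32, 5.23 and 3.88 kb in DKO. The DKO libraries of day 9, with 9.40, 9.09 and 9.00 kb, were all above the WT libraries, with 3.79, 4.72 and 4.45 kb, and the ratio of means was 2.12. From day 0 to day 9 the gain was 6.74 kb (exact permutation test, adjusted p = 0.0198). The highest fold of the Plin5 window, 37.7, is the peak at the Plin4 start, because that peak reaches into Plin5. The region over the start of Plin5 itself, chr17:56116151-56117743, was called in 7 libraries: 1 WT and 2 DKO libraries at day 6, and 1 WT and 3 DKO libraries at day 9. A wider region upstream, chr17:56118879-56125045, holds the start of Lrg1 and at day 9 covered 3.35 kb in WT against 5.21 kb in DKO, so a part of the Plin5 length cannot be assigned to Plin5 rather than to its neighbours.

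**Figure D1:**
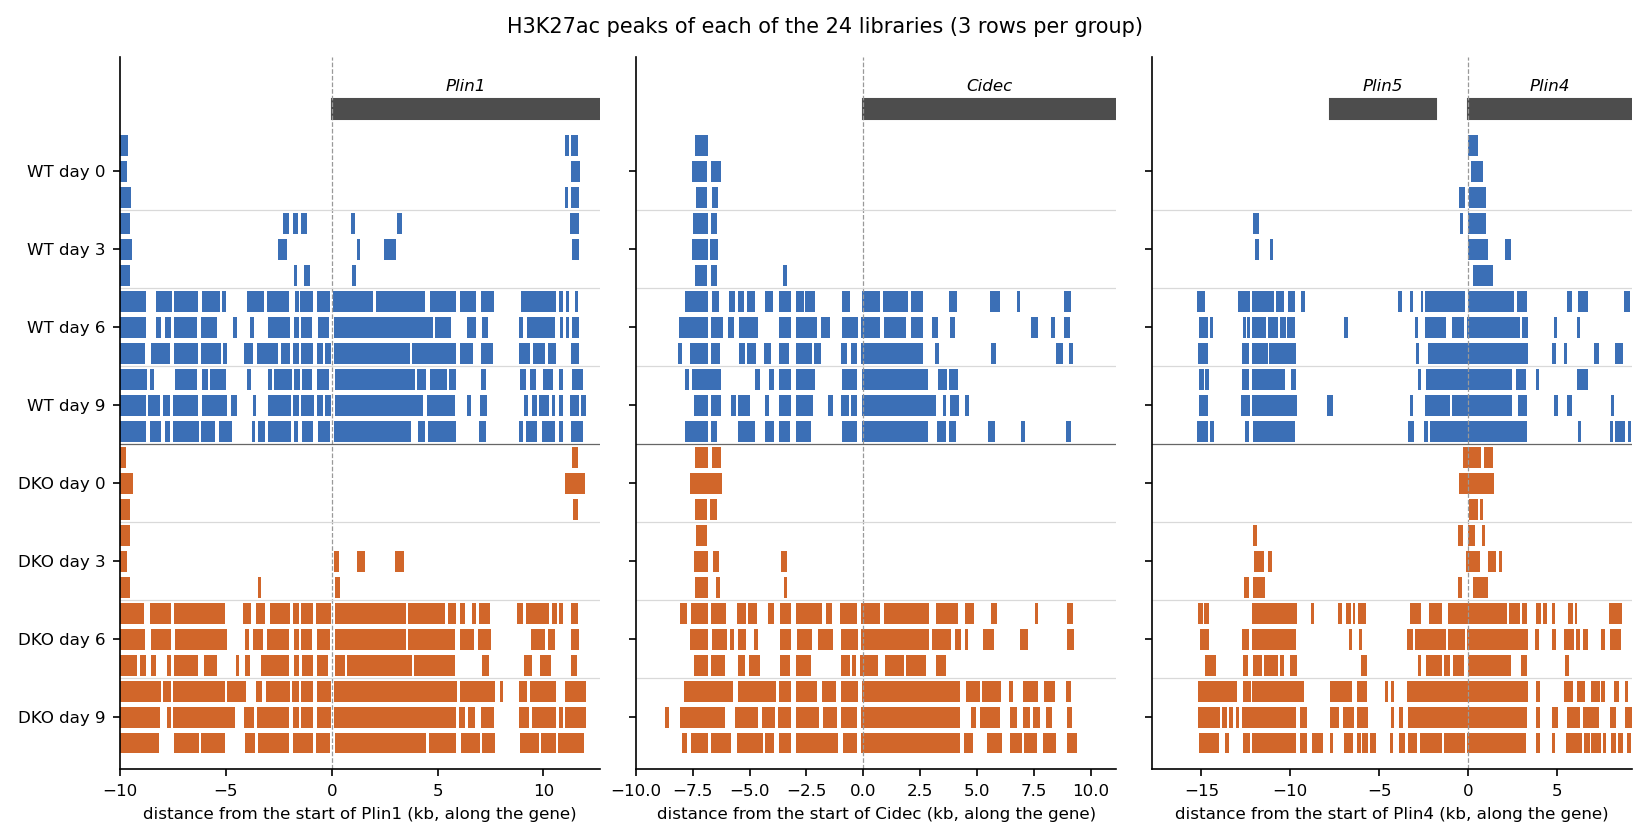
Peaks of all 24 libraries over the windows of Plin1, Cidec and Plin4 with Plin5, with distance from the gene start in kb on the horizontal axis, 1 line per library and 3 per group, WT in blue and DKO in orange, and gene spans as grey bars. The bodies and upstream flanks of the genes are nearly free of peaks at days 0 and 3 and filled at days 6 and 9, and at day 9 the DKO peaks reach farther over Plin5 and the ends of Cidec and Plin4.

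Plin2, the perilipin of most cell types, was marked in preadipocytes already. It held 5.13, 6.47 and 4.99 kb in WT and 6.26, 9.27 and 7.83 kb in DKO at day 0, and the start region chr4:86667445-86673651 lay under peaks in 24 of 24 libraries. Covered length, not scaled to the library, fell by 2.40 kb from day 0 to day 3 (exact permutation test, adjusted p = 0.0481). At day 6 it was 11.4, 10.5 and 11.6 kb in WT and 11.8, 12.2 and 7.63 kb in DKO. At day 9 it was 8.16, 9.28 and 8.37 kb in WT and 13.7, 13.3 and 12.7 kb in DKO, 1.53 times as much in DKO and without overlap. Day 9 exceeded day 0 by 4.24 kb (adjusted p = 0.0198), while the best fold of Plin2 did not pass the test for the same contrast (log2 difference -0.11, adjusted p = 0.754). The start region also holds the DR1 match printed above.

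Plin3, also expressed in many cell types, had the smallest difference between day 9 and day 0 of the perilipins. Its window held 4.67, 5.11 and 5.11 kb in WT and 4.36, 7.44 and 5.66 kb in DKO at day 0, and 5.77, 6.58 and 5.96 kb in WT and 7.80, 6.89 and 5.82 kb in DKO at day 9, overlapping sets. Day 9 minus day 0 was 1.08 kb (exact permutation test, adjusted p = 0.146). Without DKO day 0 replicate 2, the library with wide peaks, this difference was 1.49 kb and passed the test. At day 6 the 3 DKO libraries (5.25, 4.74 and 3.603 kb) were all below the WT libraries (6.81, 5.80 and 5.84 kb), an order that turned when length was scaled to the covered length of the library. The region over the annotated start, chr17:56292866-56293064, was called in 1 library, DKO day 9 replicate 1. A region inside the gene 0.86 kb from that start, chr17:56287425-56292013, holds another transcript start of Plin3 and was called in all 24 libraries. The window also holds the start of Arrdc5, and regions at both of its ends run past it to the starts of Ticam1 and Uhrf1.

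**Figure D2:**
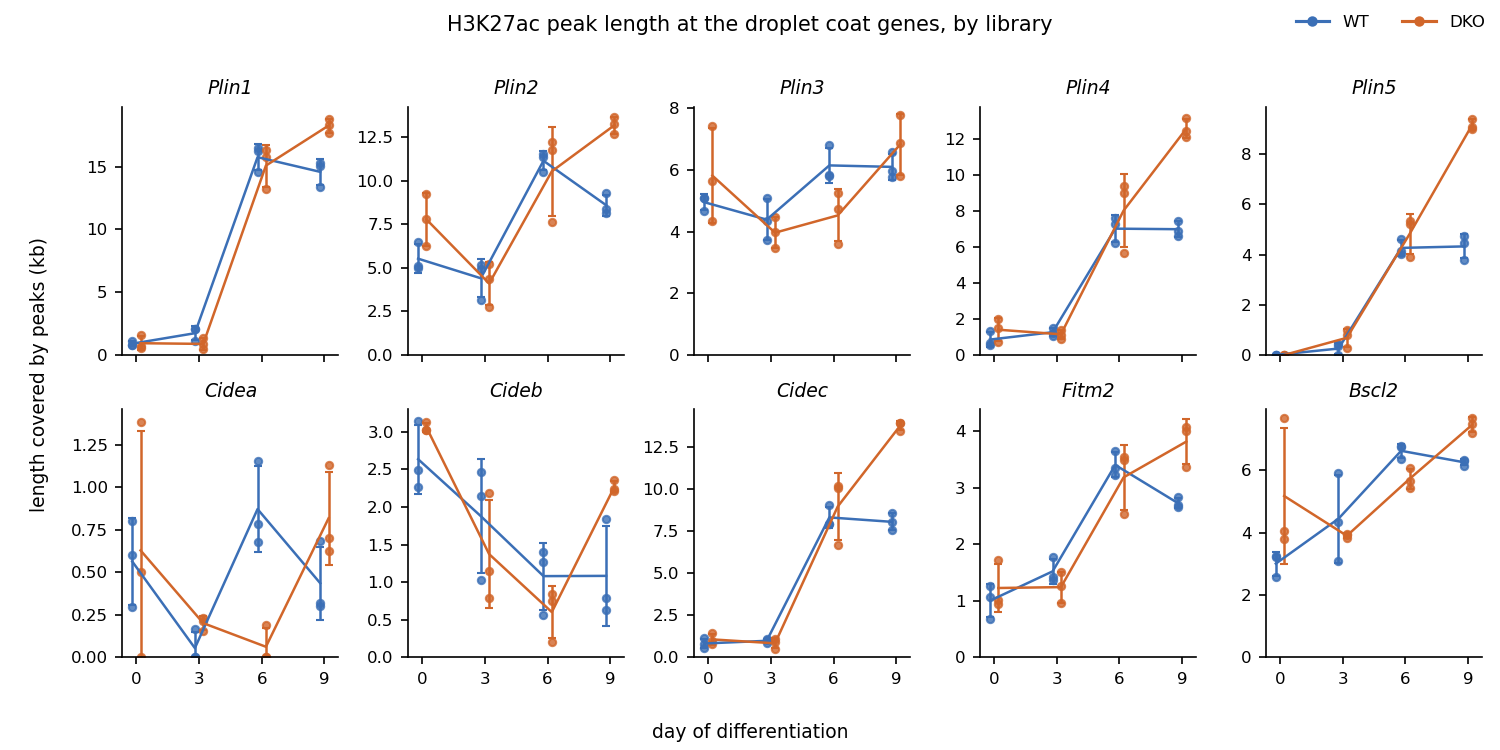
Covered length in kb of each of the 10 genes by day of differentiation, with WT in blue and DKO in orange, 1 point per library, and lines with bars for the mean ± SD of 3 libraries. Plin1, Plin4, Plin5 and Cidec are low at days 0 and 3 and high at days 6 and 9, Cidea stays under 1.4 kb throughout, and Cideb is highest at day 0.

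Among the CIDE genes only Cidec gained covered length between day 0 and day 9. The Cidec window held 0.560, 1.14 and 0.785 kb in WT and 0.955, 1.44 and 0.822 kb in DKO at day 0, all of it in the region of the neighbouring Jagn1 start, chr6:113439578-113443918, called in 24 of 24 libraries. At day 6 it held 7.96, 9.06 and 7.97 kb in WT and 10.2, 10.1 and 6.67 kb in DKO. By day 9 it held 7.59, 8.03 and 8.58 kb in WT and 13.96, 13.5 and 13.96 kb in DKO, 1.71 times as much and without overlap. The day 9 minus day 0 difference was 9.99 kb (exact permutation test, adjusted p = 0.0198). The region over the Cidec start, chr6:113431479-113435890, was called in no library of days 0 and 3 and in all 12 of days 6 and 9. Best fold at day 9 was 15.3, 19.8 and 14.7 in WT and 25.3, 21.4 and 23.9 in DKO, again without overlap. By q value, the strongest peak of each DKO library of day 9 lay in the region of the Jagn1 start (percentiles 97.4, 96.8 and 97.8). Outside that region no peak of the window went above percentile 95.4. The difference in best fold therefore cannot be assigned to Cidec rather than to its neighbour.

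Cidea, the CIDE gene linked with brown fat, had 0 to 4 peaks per library, none with a fold above 8.56, also at day 9. At day 0 it held 0.294, 0.8 and 0.6 kb in WT and 0, 1.39 and 0.503 kb in DKO. At day 6 it held 1.16, 0.783 and 0.677 kb in WT and 0, 0.188 and 0 kb in DKO, and the genotypes did not overlap. At day 9 the sets overlapped, with 0.302, 0.685 and 0.323 kb in WT and 1.13, 0.7 and 0.624 kb in DKO. Day 9 minus day 0 was 0.030 kb (exact permutation test, adjusted p = 0.963). Its best fold at day 0 was 4.87, 6.06 and 5.45 in WT and 3.52 and 4.95 in the DKO libraries with a peak, and at day 9 it was 8.56, 7.33 and 6.38 in WT and 5.44, 6.78 and 5.52 in DKO. In the fit with limma on log2(kb + 0.1), the DKO value at day 6 was lower by 2.74 on the log2 scale (SE 0.67, adjusted p = 0.0038), where 43.7% of all genes were called lower in DKO. The WT peaks of day 6 lay near the end of the gene, where a region 22.2 kb from the start had a peak in every WT library and in no DKO library. A narrow region 0.175 kb inside the gene had a peak in every DKO library of day 9 and in no other library.

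Cideb went the other way from Cidec. It held 2.27, 3.15 and 2.48 kb in WT and 3.03, 3.02 and 3.12 kb in DKO at day 0. At day 6 it was down to 0.570, 1.27 and 1.40 kb in WT and 0.848, 0.755 and 0.204 kb in DKO. At day 9 it was 0.784, 0.625 and 1.84 kb in WT and 2.24, 2.21 and 2.35 kb in DKO, without overlap. From day 0 to day 3 covered length fell by 1.22 kb (exact permutation test, adjusted p = 0.0365) and from day 0 to day 9 it fell by 1.17 kb (adjusted p = 0.0198). Most of this length was upstream, in a window that also holds the starts of Ltb4r2 and Ltb4r1, and over the gene alone the day 9 minus day 0 difference was 0.056 kb. The start of Cideb itself was within a region called in 4 libraries.

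Fitm2 and Bscl2, which act at droplet birth, were marked at their starts in all 24 libraries. Fitm2 held 1.07, 0.679 and 1.25 kb in WT and 0.942, 1.72 and 1.02 kb in DKO at day 0, and 2.83, 2.65 and 2.70 kb in WT and 4.08, 3.36 and 4.00 kb in DKO at day 9, the latter without overlap. Its gain from day 0 to day 9 was 2.15 kb (exact permutation test, adjusted p = 0.0198). Bscl2 held 2.57, 3.22 and 3.24 kb in WT and 4.05, 7.68 and 3.81 kb in DKO at day 0, the only gene of the set with every DKO library above every WT library at that day. At day 6 this order was turned, with 6.77, 6.36 and 6.75 kb in WT and 6.09, 5.65 and 5.44 kb in DKO, though not when length was scaled to the covered length of the library. At day 9 it was turned again, with 6.30, 6.33 and 6.15 kb in WT and 7.68, 7.21 and 7.50 kb in DKO. The day 9 minus day 0 difference of Bscl2 was 2.77 kb (adjusted p = 0.0467). Its window also holds the starts of AC129217.1, in the upstream part, and of Gng3, so a part of this length cannot be assigned to Bscl2. With each peak cut to 250 bp either side of its summit the Bscl2 difference was -0.38 kb.

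**Figure D3:**
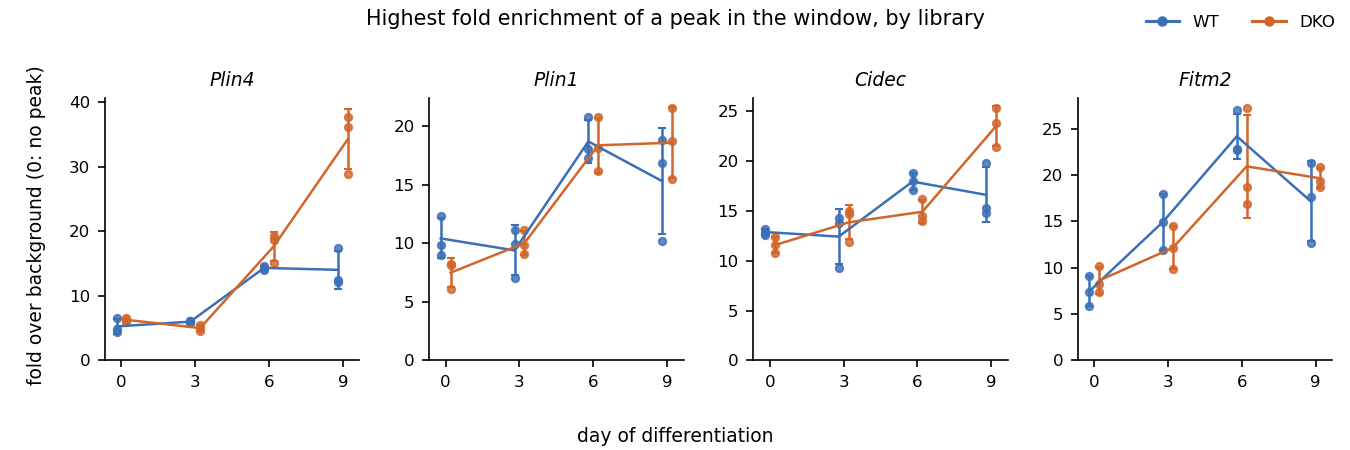
Best fold of Plin4, Plin1, Cidec and Fitm2 by day of differentiation, with WT in blue and DKO in orange, 1 point per library, and lines with bars for the mean ± SD of 3 libraries. At day 9 the DKO libraries of Plin4 sit between 28.9 and 37.7 and the WT libraries between 12.2 and 17.5, and at day 0 all 6 lie under 7. The Cidec values at day 0 are those of peaks in the region of the Jagn1 start. At day 9 the strongest DKO peaks of the Cidec window by q value lie in that region too.

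Over the set, 7 of 10 genes gained covered length from day 0 to day 9 and Cideb lost it, where 16.8% of all genes tested gained and 15.3% lost it. Without DKO day 0 replicate 2 the share of all genes that gained was 31.4%, and 8 of the set did, Plin3 being added. Bscl2 did not pass with a -log10 q minimum of 5 (adjusted p = 0.0507), and Fitm2 (0.0664) and Bscl2 (0.673) did not with 250 bp either side of each summit. The median difference was 3.51 kb over the 10 genes and 0.04 kb over all genes. Best fold was called higher at day 9 for 7 of the 10 as well, against 27.2% of all genes, with a fold of 1 entered for a library without a peak. Plin1, Plin4, Cidec, Fitm2 and Bscl2 had a peak in every library of both days, whereas the calls of Plin5, with no peak in 6 of 6 day 0 libraries, and of Cidea, with none in 1, rest on entered values. The day 0 folds of Cidec came from the region of the Jagn1 start. Those of Plin1 came from the far end of the gene or the region of the Pex11a and Wdr93 starts. By step, in unscaled length, no gene of the set was called higher from day 0 to day 3 (1.58% of all genes), and Plin2 and Cideb were called lower (29.6% of all genes). With scaled length this step called 2957 of 15592 genes higher and 2511 lower. Per Mb covered by the library, Fitm2 and Bscl2 had every day 3 library above every day 0 library in both genotypes. No other gene of the set separated in both genotypes, up or down. The Plin2 mean per Mb went from 0.109 to 0.099 kb in WT and from 0.121 to 0.116 kb in DKO. From day 3 to day 6 the differences were 14.1 kb for Plin1, 7.74 kb for Cidec, 6.60 kb for Plin2, 6.31 kb for Plin4 and 4.07 kb for Plin5. These sat at p = 0.005, the smallest that this exact permutation test can give, with an adjusted p of 0.0571, and no gene of the genome passed in that step although 3912 had an unadjusted p under 0.05. From day 6 to day 9 no gene passed either, with 4946 at an unadjusted p under 0.05. With scaled length, Plin1, Plin2, Plin4, Plin5, Cidec, Fitm2 and Bscl2 were called higher from day 3 to day 6 (10.8% of all genes) and Cideb lower (10.1%), and from day 6 to day 9 Plin2 was called lower (6.84%) and none of the set higher (7.74%).

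Between the genotypes, no gene of the set was called over the 4 days jointly. The largest DKO minus WT differences were 1.75 kb for Plin4 (exact permutation test within days, adjusted p = 0.344), 1.62 kb for Cidec (0.417), 1.49 kb for Plin2 (0.470) and 1.45 kb for Plin5 (0.239), and the test called 0.128% of all genes. Without DKO day 0 replicate 2 it called 1.31% of all genes, 12 higher and 192 lower in DKO, and again none of the set. None was called by percentile of the strongest peak or by best fold either, tests that called 3.69% and 5.75% of all genes. With length divided by the covered length of the library, a scaling added after seeing the data, 5 of the 10 (Plin2, Plin4, Plin5, Cidec and Bscl2) were called higher in DKO, against 10.1% of all genes. The difference over 4 days joined days that went apart, as given by day below. A test of a change of the DKO minus WT difference over the days, with genotype permuted within days, called 20% of all genes. In the set it called Bscl2 (adjusted p = 0.0401). Between day 6 and day 9 alone it called 31.7% of all genes and, in the set, Bscl2 (0.0288), Cidea (0.0387) and Cideb (0.0474).

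Within single days 3 against 3 libraries cannot go below an exact permutation p of 0.1, so genes were counted where the genotypes did not overlap. At day 0 Bscl2 alone had DKO above WT (19.2% of all genes) and none had DKO below WT (0.718%). At day 3 no gene of the set had DKO above (0.77%) or below WT (10.6%). At day 6, when the DKO lists covered less of the genome, Plin3, Cidea and Bscl2 had DKO below WT, 3 of 10 against 61.1% of all genes, and none had DKO above WT (0.0641%). The median difference at day 6 was -0.54 kb over the set and -0.59 kb over all genes. The direction at day 6 turned with the scaling to covered length, under which 8 of the 10 had DKO above WT (37.7% of all genes), Plin3 and Bscl2 among them, and only Cidea had DKO below WT (14.6%).

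At day 9 the DKO libraries were above the WT libraries for 8 of the 10 genes, all but Plin3 and Cidea, against 30.3% of all genes, and none had DKO below WT (2.08%). The median difference was 2.44 kb over the set and 0.25 kb over all genes. The count enters the bases shared by Plin4 and Plin5 for both genes, and it depended on how length was measured. With the 20000 strongest peaks of each library it was 6 (16% of all genes), and scaled to the covered length of the library it was 5 (13.8%), namely Plin2, Plin4, Plin5, Cidec and Cideb. With each peak cut to 250 bp either side of its summit only Plin4 and Plin5 had DKO above WT (11.3%), and Plin1 had DKO below WT (2.9%), at 10.3 kb in WT and 7.32 kb in DKO. The Plin1 window held 21, 23 and 21 peaks in WT and 15, 16 and 14 in DKO at day 9, so DKO had fewer peaks over more length. A fit with limma on log2(kb + 0.1) called none of the 10 higher at day 9 (0.815% of all genes), and with 0.5 kb as pseudocount it called Plin5 (log2 difference 1.01, adjusted p = 0.0120) and Cidec (0.74, adjusted p = 0.0482) against 1.56% of all genes. The wider coverage of the DKO lists at day 9, 61.2 to 68.8 Mb against 48.2 to 59.6 Mb, moved with this result, and its part in it was not tested beyond this scaling.

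**Figure D4:**
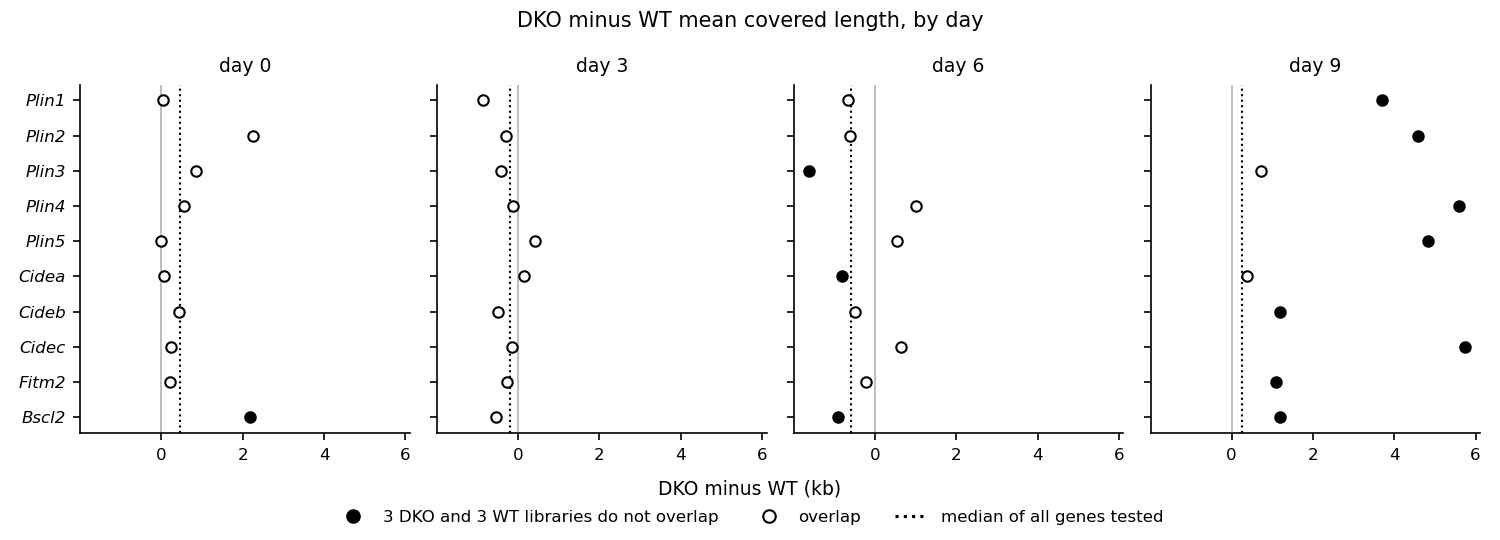
DKO minus WT difference of the mean covered length in kb at each day for the 10 genes, with filled points where the 3 DKO and 3 WT libraries do not overlap, open points where they do, and the median of all genes tested as a dotted line. At day 9 the points for Cidec, Plin4, Plin5, Plin2 and Plin1 lie between 3.69 and 5.74 kb, and at day 6, in length not scaled to the library, none lies above 1.01 kb.

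Base by base, 7 of the 10 genes had a larger share covered in DKO alone at day 9 than the genome as a whole. In the Plin5 window 2.14 kb, or 18.4% of the bases under a peak in any day 9 library, were covered in all DKO but 0 of 3 WT libraries. The share was 14.7% for Plin4 (2.34 kb), 12.8% for Cidec (2.06 kb), 11.5% for Plin2 (1.91 kb) and 6.66% for Plin1 (1.37 kb), and over the genome it was 2.40%. The Plin4 and Plin5 windows share bases, so their 2 shares are not separate. Covered in every WT and no DKO library were 0.026 kb at Plin1 and 0 kb at the other 9 genes, against 0.625% of bases genome-wide. At day 6 the genome leaned to WT, with 9.26% of bases covered in WT alone and 0.0818% in DKO alone. Plin1, Plin2, Plin3, Cidea, Cideb, Fitm2 and Bscl2 leaned to WT too, with 0.578% (Plin1) to 29.5% (Cidea) of bases covered in WT alone. Only Cidec, Plin5 and Plin4 leaned to DKO. At Cidec 0.551 kb (3.93%) was covered in DKO alone and 0.051 kb in WT alone. The same lengths were 0.094 and 0.007 kb at Plin5, and 0.081 and 0 kb at Plin4.

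Whole regions that were called in every DKO and no WT library at day 9 were narrow. Plin2 had 3 of them inside the gene (chr4:86654077-86654669, chr4:86659604-86660018 and chr4:86661421-86662298). Plin5 had 2 inside the gene (chr17:56113984-56114205 and chr17:56115424-56116082). Cidec had 1 in an intron 7.91 kb from the start (chr6:113427275-113427850) and Fitm2 had 1 that overlaps an exon (chr2:163468725-163469653), beside the Cidea region given above. At day 6 the first Plin2 region and the Fitm2 region were called in 2 WT libraries, and the third Plin2 region and the Cidec region in 1. In the Fitm2 window 0 kb was covered in every DKO and no WT library at day 9. Genome-wide 2465 of the 112125 regions called at day 9 had this pattern (2.2%) and 653 the reverse (0.582%). Over all libraries the windows of Plin2, Plin5, Cidec, Fitm2 and Cidea held 18, 9, 11, 5 and 5 regions. Those of Plin1, Plin3, Cideb and Bscl2, with no such region, held 8, 11, 4 and 8. The Plin4 window held 14 regions, and its 2 with this pattern are the ones given for Plin5. The second Plin5 region was also called in 3 DKO and 0 WT libraries at day 6. Of the 87288 regions called at that day only 66 were (0.0756%), and 7697 had the reverse (8.82%). Over all 24 libraries it was called in 6 DKO and 0 WT libraries (exact permutation test, p = 0.005, adjusted p = 0.455). No region of the genome passed that test (0% of 71175 regions), with 3430 at an unadjusted p under 0.05 more often called in WT and 324 more often in DKO.

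Other genes of droplet formation and triglyceride storage gained the mark over the same days. Of 14 genes listed 12 were tested, and 9 gained covered length from day 0 to day 9, with the highest difference for Acsl1, which activates fatty acids (13.4 kb), followed by Agpat2, an acyltransferase of triglyceride synthesis (12.7 kb), and Gpat3 (9.87 kb). Lpin1, Gpat4, Dgat1, Dgat2, Mogat2 and Pnpla3 gained too, and Acsl3, which sits on nascent droplets, lost 3.44 kb, where 16.8% of all genes gained and 15.3% lost covered length. Of 13 genes of lipolysis and other droplet-bound proteins, 10 gained, with the monoglyceride lipase Mgll highest (19.2 kb), hormone-sensitive lipase Lipe at 10.1 kb, Abhd5 at 9.15 kb and the triglyceride lipase Pnpla2 at 7.94 kb, and Hsd17b11 lost 1.67 kb. None of either list was called by genotype over the 4 days. At day 9, in unscaled length, the DKO libraries were above the WT libraries for 8 of the 12 and for 10 of the 13. The share of all genes was the same 30.3%. At day 6 they were below the WT libraries for 2 and 7, against 61.1%. These counts moved with the covered length of the lists at each day and were not repeated with scaled length or around summits.

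The genes whose covered length ran most like that of the 3 members with the largest gain were compared by Pearson's r of log2(kb + 0.1) over the 24 libraries among 13125 genes. Like Plin1 were G0s2, an inhibitor of lipolysis (r = 0.990), and Apex2 and Pfkfb1 (both 0.987), whose windows share their peaks. Like Cidec were Agpat2 (0.988), Ubqln1 (0.987) and Pemt (0.986), and like Plin4 were Chpt1 (0.980), Ubqln1 (0.978) and Pnpla2 (0.975). Within the set, Cidec followed Plin4 (0.981) and Plin1 (0.977), whereas Cideb ran against Plin1 (-0.455) and Cidea was weakly related to it (0.255). The points share library, covered length and the step from day 3 to day 6, so these values are descriptions.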

How the data were processed

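H3K27ac ChIP-seq was done in 24 libraries, 3 for each of 2 genotypes at 4 days, and 16 input samples were not analysed here. Per the submitters' processing notes, reads were handled with bcl2fastq 2.17 and cutadapt 1.18 and aligned with BWA to mm10, and peaks were called in each library with MACS2 2.1.1.20160309. The deposited lists give each peak a fold over background, which is a ratio with a pseudocount. They also give a p value and a q value that the authors' caller wrote as -log10. The lists hold no read totals, so total depth is unknown, and length and q both move with it. Reads at summits and in the background were worked back from fold and p value, not counted. Genes are GENCODE M21. Peaks were clipped to each window, joined, and summed to kb, and a window without a peak was given a fold of 1 in the tests of fold and a percentile of 0. Genotypes were permuted within days, or days within genotypes, for every gene with a peak in at least 3 libraries, two-sided, with Benjamini-Hochberg adjustment at a threshold of 0.05 (Python 3.11.15, numpy 2.4.6), and limma 3.58.1 in R 4.3.3 was an alternative. The scripts were tested on simulated data. Alternatives were a -log10 q minimum of 5, the 20000 strongest peaks, 250 bp around summits, the gene alone, and 1 kb around transcript starts. Others were a filter of a peak in at least 1 library (16329 genes), leaving out replicates, and a replicate block. All 10 genes are named by rule, their regions where they hold the start, are widest or were found in 3 libraries of one genotype and 0 of the other, and other genes where they start in a window or are most alike; any other gene or region was chosen after its values were seen. Genes, lists and tests were chosen with earlier results of these data known.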

Additional observations from a re-analysis of the deposited data

Results flagged for a closer look

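For 3 of the 10 genes the DKO minus WT difference in covered length was called as differing between days (exact permutation test with genotype permuted within days, Benjamini-Hochberg adjusted over 15592 genes). This test assumes no genotype difference on any day, rather than an equal difference on all days. For Bscl2 it changed over the 4 days (adjusted p = 0.0401), with DKO above WT at days 0 and 9 and below it at day 6 in unscaled length, and day 9 against day 6 gave an adjusted p of 0.0288. For Cidea, absent from 2 of 3 DKO libraries at day 6, day 9 against day 6 gave 0.0387, and for Cideb it gave 0.0474. Larger changes from day 6 to day 9 were not called, 5.20 kb for Plin2 (adjusted p = 0.0938) and 5.09 kb for Cidec (0.111), against 1.19 kb for Cidea and 1.66 kb for Cideb. The same tests called 20% and 31.7% of all genes, no smaller shares than in the set, and were not run on scaled length.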

How the results depend on the processing

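The direction of the day 9 minus day 0 difference held for Plin1, Plin2, Plin3, Plin4, Plin5, Cidec and Fitm2 in every alternative run. The 7 genes called higher became 0 with the 20000 strongest peaks, 0 with 1 kb around transcript starts, 0 under a replicate block and 0 to 0 without 1 replicate, and the 1 called lower became 0 in the same settings and with 250 bp around summits or the gene alone. In the first 3 settings and without a replicate no gene of the genome was called, the smallest adjusted p being 0.0561, 0.0514, 0.0992 and 0.123 to 0.188. Without a replicate this exact permutation test has 36 relabellings and a smallest unadjusted p of 0.0556, so no gene could be called. Deviations of same-numbered WT and DKO libraries of a day from their group means correlated at -0.0956 to 0.158 (5 of 12 above 0, 1 above 0.1), and those of same-numbered day 0 and day 9 libraries of a genotype at -0.0279 to 0.0367 (0 of 6 above 0.1), so the numbers were not taken to pair libraries and the replicate block was not used in the report. Reversed for day 9 minus day 0 were Cidea with -log10 q of at least 5 (-0.0373 kb) and without replicate 1 (-0.239 kb; range -0.239 to 0.246 kb without 1 replicate), Cideb over the gene alone (0.0555 kb) and around starts (0.0855 kb), and Bscl2 with 250 bp (-0.382 kb). Over 4 days the 0 genes called higher became 5 with scaled length and 1, Plin5, with limma and 0.5 kb. Reversed there were Plin1 with limma (log2 difference -0.188 with 0.1 kb and -0.119 with 0.5 kb) and, with 250 bp, Plin1 (-1.26 kb), Plin2 (-0.0785 kb) and Cideb (-0.205 kb), around starts Plin3 (0.0499 kb) and Cidea (0.0574 kb), and Plin3 scaled (0.543 kb) and without replicates 1 (0.0126 kb) and 3 (0.0295 kb; range -0.380 to 0.0295 kb without 1 replicate). By step, day 3 minus day 0 went from 2 to 0 with the 20000 strongest peaks, and scaled length gave 8 from day 3 to 6 and 1 from day 6 to 9, with the shares of all genes given above. Genes with DKO above WT at day 0 went from 1 to 3 with -log10 q of at least 5, 0 with 250 bp, 0 with limma and 2 to 4 without a replicate (19.4% of all genes with the q minimum and 1.60% with 250 bp), and DKO below from 0 to 2 with 250 bp (7.41%) and 0 to 2 without a replicate. At day 3, DKO above went from 0 to 2 scaled (12.4%) and 0 to 2 without a replicate, and DKO below from 0 to 1 with 250 bp (6.77%), 1 scaled (7.82%) and 0 to 2 without a replicate. At day 6, DKO above went from 0 to 1 with the 20000 strongest peaks (1.11%), 2 with 250 bp (2.04%), 8 scaled (37.7%) and 0 to 4 without a replicate (4 without replicate 3), and DKO below from 3 to 1 in each of the first 3 (29.5%, 24.9% and 14.6%) and with limma. At day 9, DKO above went from 8 to 2 with 250 bp, 5 scaled, 0 with limma and 0.1 kb and 2 with 0.5 kb, with 8 to 10 without a replicate, and DKO below from 0 to 1 with 250 bp. Scaling and limma at single days were added after seeing the data; the cause of these changes was not tested. Counting regions by summit gave the same regions by construction.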
